A study of Mus musculus with 8 samples.

Results

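The Ca2+/calmodulin-dependent protein kinase (CaMK) family is described here across mouse myocardium with and without myocardial infarction (MI). The 10 genes were chosen by name: the CaMKII kinases Camk2a, Camk2b, Camk2d and Camk2g, the CaMKII inhibitor Camk2n1, the CaMKI kinases Camk1, Camk1d and Camk1g, the CaMKIV kinase Camk4 and the upstream kinase Camkk2. They are 10 of 33249 genes in the gene table, and their 81 annotated transcripts are among 94947 in the transcript table. Annotated transcripts are here those that the authors deposited. Poly(A) RNA from myocardium was sequenced in 8 libraries of 4 groups, 2 libraries each, from mice labelled Piezo1 fl/fl (fl/fl) or Piezo1 Cko (CKO), after sham surgery or 42 days after MI by permanent coronary ligation, with surgery at 8 weeks of age. All groups carried floxed Piezo1 alleles. The CKO groups also carried a tamoxifen-inducible Cre driven by the Myh6 promoter, which is active in cardiomyocytes, so other cells of these hearts keep Piezo1. Tamoxifen was given at 75 mg/kg/day for 5 days at 4 weeks of age; the sources do not say whether fl/fl mice received it. They do not say either whether a library came from 1 heart, so p-values measure the spread between these libraries only.

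The genotype labels were checked first. Piezo1 was at 72.2 to 82.0 CPM (counts scaled to library size) in fl/fl-Sham and 76.7 to 88.3 CPM in CKO-Sham, and at 53.5 to 64.8 CPM in fl/fl-MI and 56.3 to 64.6 CPM in CKO-MI, so it was not lower in the libraries labelled CKO. Esr1, part of which is fused to this Cre, was at 5.52 to 8.36 CPM in all sham libraries, CKO-Sham included, and in fl/fl-MI 1, but at 331 to 707 CPM in fl/fl-MI 2 and both CKO-MI libraries. The library labelled fl/fl-MI 2 also stood apart in atrial genes: its Myl4 was 2810.4 CPM against at most 48.0 CPM elsewhere. The Esr1 levels go against the labels of the CKO-Sham libraries and of fl/fl-MI 2, so genotype results are given with and without fl/fl-MI 2. MI was compared with sham first, over both labels, because 4 libraries then face 4. Cardiomyocyte genes were present in every library, with a summed level of 13296 CPM or more over 8 markers. Libraries held 73821747 to 88117573 gene counts, which is about 4 counts per read pair. Mitochondrially encoded genes took 43.1 to 46.4% of counts in sham and 19.9 to 24.2% in MI, which matters for the choice of scale below.

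CaMKs are serine/threonine kinases that are switched on when Ca2+-bound calmodulin displaces an autoinhibitory segment. CaMKII assembles into multisubunit rings and can stay active after the Ca2+ signal by phosphorylating itself. In cardiomyocytes it phosphorylates Ca2+-handling proteins such as the ryanodine receptor and phospholamban, and its nuclear forms act on class IIa histone deacetylases. CaMKK2 phosphorylates CaMKI and CaMKIV, and also the energy sensor AMPK.

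CaMKII subunits differ mainly in a linker between the catalytic and association domains, where short in-frame exons are used or skipped. These exons are shown because the transcript results below are sorted by them; each lies wholly in coding sequence, 5′ to 3′ on the transcript's strand, in GRCm38 with GENCODE M21 transcripts. The Camk2d exons are at chr3:126802937-126802969 (33 bases), chr3:126805857-126805916 (60 bases) and chr3:126808208-126808249 (42 bases) on the plus strand. The Camk2g exons are at chr14:20747819-20747851 (33 bases) and chr14:20745792-20745860 (69 bases) on the minus strand. Capitals mark bases that are identical between the 33-base exons of both genes, 26 of 33 (78.8%).
Camk2d 33-base exon: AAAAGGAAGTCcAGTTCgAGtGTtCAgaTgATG
Camk2g 33-base exon: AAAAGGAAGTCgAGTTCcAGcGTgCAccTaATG
Camk2d 60-base exon: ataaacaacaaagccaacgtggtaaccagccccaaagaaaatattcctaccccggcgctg
Camk2d 42-base exon: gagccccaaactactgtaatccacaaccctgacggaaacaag
Camk2g 69-base exon: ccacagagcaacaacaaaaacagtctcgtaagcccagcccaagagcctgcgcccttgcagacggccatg
The 33-base exon of Camk2d encodes the nuclear localization signal of the form known as δB. Types are named here by these exons alone. The δB type holds the 33-base exon, the δA type the 60-base and 42-base exons, and the δ9 type the 42-base exon alone. Transcripts with none of the 3 include δC. Coding length also differed within a type, so a transcript need not encode the whole form of that name. Camk2d-206 has 1536 coding bases and Camk2d-228, with the same linker exons, has 1599.

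Levels between genes were compared per length, in FPKM (read fragments per kilobase, scaled to library size). In the 4 sham libraries the deposited gene FPKM ran from Camk1 (6.69 ± 0.423, SD, n = 4), Camk2g (5.31 ± 0.398), Camk2n1 (4.56 ± 0.166) and Camk2a (3.75 ± 0.550) to Camk2d (2.71 ± 0.0350). Camkk2 (0.946 ± 0.143), Camk1d (0.692 ± 0.0830) and Camk2b (0.671 ± 0.0335) followed, and Camk4 (0.158 ± 0.0907) and Camk1g (0.0622 ± 0.0640) were lowest. Neighbours whose library ranges overlapped in sham were Camk2n1 and Camk2a, Camkk2 and Camk1d, Camk1d and Camk2b, and Camk4 and Camk1g. In the 4 MI libraries Camk1 (9.35 ± 1.42) was again first, now followed by Camk2d (6.95 ± 0.557), Camk2g (6.51 ± 0.593), Camk2n1 (5.27 ± 1.12) and Camk2a (4.59 ± 2.40). Next came Camk1d (2.82 ± 2.57), Camkk2 (2.51 ± 1.10), Camk1g (1.13 ± 1.53), Camk2b (0.942 ± 0.336) and Camk4 (0.155 ± 0.0482), and only Camk1 against Camk2d and Camk2b against Camk4 were free of overlap with the next gene.

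The order depended on the length behind the level, which was the whole gene model in the gene table. When the FPKM of all annotated transcripts of a gene was summed instead, Camk2d was second in sham (13.3 ± 0.451, SD, n = 4), below Camk1 (24.8 ± 1.61) and above Camk2g (9.75 ± 0.814), Camk2a (5.96 ± 0.864) and Camk2n1 (4.56 ± 0.166). In MI the summed level was 35.8 ± 1.75 for Camk2d and 35.9 ± 5.36 for Camk1, whose ranges overlapped. Camk2d was therefore below Camk2g and Camk2a in sham by gene FPKM and above both by summed transcript FPKM.

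Infarction against sham was tested on counts with edgeR's quasi-likelihood test over the 14028 genes whose FPKM averaged 0.5 or more, and a gene was called at a Benjamini-Hochberg adjusted p under 0.05. Of the 9 members that passed this filter, 4 were called: Camk2d, Camk1g and Camk1d rose and Camk2n1 fell. Camk1g passed the filter only through its level in fl/fl-MI 2. This share stands beside 40.4% of all genes tested (22.0% higher and 18.3% lower), and the median log2 fold change was -0.07 over the 9 members and 0.03 over all genes. Without adjustment 6 members passed, against 50.2% of all genes. In bulk myocardium fewer cells of a type and less RNA per cell cannot be told apart.

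Camk2d, the predominant cardiac CaMKII gene (ENSMUSG00000053819, chr3:126596302-126846326, plus strand), was the member with the smallest p. It was at 80.1 and 73.2 CPM in fl/fl-Sham, 75.5 and 79.1 in CKO-Sham, 124 and 147 in fl/fl-MI, and 155 and 109.8 in CKO-MI. Every MI library lay above every sham library. The fold change was 1.74 (log2 0.80, SE 0.14, adjusted p = 0.00495), and Camk2d was called under all 18 alternatives in which it was tested, with log2 values from 0.64 to 1.68.

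Camk2g (ENSMUSG00000021820, chr14:20734875-20794088, minus strand), the other broadly expressed CaMKII gene, lay the other way. It was at 39.5 and 43.0 CPM in fl/fl-Sham, 42.7 and 46.3 in CKO-Sham, 30.4 and 35.8 in fl/fl-MI, and 39.0 and 37.1 in CKO-MI. The groups did not overlap, but the log2 fold change of -0.27 (SE 0.10) missed the threshold (adjusted p = 0.0595). Without fl/fl-MI 2 it was -0.33 with an adjusted p of 0.0160, in a fit that called 8 of 9 members beside 50.7% of all genes. With all libraries it was called lower in 4 other settings, DESeq2 (adjusted p = 0.0487) among them, and its sign turned on the FPKM scales described below.

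Camk2a and Camk2b, best known as the neuronal CaMKII genes, had MI libraries on both sides of sham. Camk2a (ENSMUSG00000024617, chr18:60925618-60988152, plus strand) was at 30.3 and 39.5 CPM in fl/fl-Sham, 32.6 and 38.5 in CKO-Sham, 19.5 and 55.6 in fl/fl-MI, and 28.5 and 16.4 in CKO-MI. Camk2b (ENSMUSG00000057897, chr11:5969644-6066362, minus strand) was at 8.34 and 7.83 CPM in fl/fl-Sham, 7.44 and 7.45 in CKO-Sham, 5.15 and 12.2 in fl/fl-MI, and 6.97 and 5.69 in CKO-MI. For both genes fl/fl-MI 2 was the highest of all 8 libraries and the other 3 MI libraries were below every sham library. With all libraries the log2 fold changes were -0.28 (SE 0.34, adjusted p = 0.540) for Camk2a and -0.07 (SE 0.27, adjusted p = 0.853) for Camk2b. Without fl/fl-MI 2 both were called lower, Camk2a at -0.75 (adjusted p = 0.0202) and Camk2b at -0.44 (adjusted p = 0.0447), and without fl/fl-MI 1 Camk2b was at 0.16.

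Camk2n1 (ENSMUSG00000046447, chr4:138454314-138460123, plus strand) encodes a small protein that binds and inhibits CaMKII. It was at 25.0 and 25.2 CPM in fl/fl-Sham, 25.3 and 26.7 in CKO-Sham, 22.1 and 24.9 in fl/fl-MI, and 16.8 and 16.0 in CKO-MI. All MI libraries were below all sham libraries, but fl/fl-MI 2 only just. The log2 fold change was -0.38 (SE 0.09, adjusted p = 0.0165), and it was called lower in 10 of 18 alternatives and higher in 1, log2(TPM + 1) (0.68, adjusted p = 0.00180). The call was lost when any 1 sham library was left out, with adjusted p between 0.0537 and 0.0689, and the direction turned on the FPKM scales described below.

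The CaMKI genes differed in level and in change. Camk1 (ENSMUSG00000030272, chr6:113334124-113343984, minus strand), which CaMKK activates, was at 48.0 and 51.1 CPM in fl/fl-Sham, 52.4 and 49.6 in CKO-Sham, 50.1 and 45.5 in fl/fl-MI, and 44.0 and 49.3 in CKO-MI. The groups overlapped, and the log2 fold change of -0.09 had an interval of ± 2 SE from -0.28 to 0.09 (adjusted p = 0.466). Of its annotated exon bases, 232 of 5975 (3.88%) are shared with Ogg1 on the opposite strand, and whether counting used strand is not stated.

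Camk1d (ENSMUSG00000039145, chr2:5293457-5714515, minus strand), the delta form of CaMKI, was at 6.70 and 6.46 CPM in fl/fl-Sham, 5.38 and 7.40 in CKO-Sham, 10.6 and 45.4 in fl/fl-MI, and 7.14 and 10.4 in CKO-MI. One MI library, CKO-MI 1, lay within the sham range, and fl/fl-MI 2 stood far above the other MI libraries. The log2 fold change was 1.27 (SE 0.43, adjusted p = 0.0498), and 0.57 (adjusted p = 0.0426) without fl/fl-MI 2. It was called in 7 of 18 alternatives, and lost when any 1 sham or any 1 CKO-MI library was left out, with adjusted p between 0.0822 and 0.155.

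Camk1g (ENSMUSG00000016179, chr1:193346346-193370298, minus strand), the gamma form of CaMKI, was close to absent in sham. It was at 0.0853 and 0.0791 CPM in fl/fl-Sham, 0.177 and 0.559 in CKO-Sham, 1.15 and 8.68 in fl/fl-MI, and 0.827 and 0.567 in CKO-MI. The MI libraries were all above the sham libraries, but CKO-MI 2 and CKO-Sham 2 nearly met. The sham values are 5, 5, 13 and 34 counts, so they rest on few read pairs. Camk1g passed the filter of a mean FPKM of 0.5 only because of fl/fl-MI 2, at 3.41 FPKM. The other libraries were at 0.02165 to 0.529 FPKM. The fit without fl/fl-MI 2 kept the genes filtered over all 8 libraries, so it still depends on that library. The log2 fold change was 3.40 (SE 0.74, adjusted p = 0.0113), and 2.36 (adjusted p = 0.00557) without fl/fl-MI 2; the call was lost without either fl/fl-Sham library (adjusted p = 0.0527 and 0.0574) and with limma on log2(FPKM + 1) (adjusted p = 0.0589).

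Camk4 (ENSMUSG00000038128, chr18:32934931-33191228, plus strand), the nuclear CaMKIV kinase best known from lymphocytes and neurons, did not pass the filter. It was at 0.648 and 0.142 CPM in fl/fl-Sham, 0.872 and 0.987 in CKO-Sham, 0.557 and 0.302 in fl/fl-MI, and 0.484 and 0.392 in CKO-MI. The groups overlapped, and without a filter the log2 fold change was -0.41 (SE 0.51, adjusted p = 0.778), so a difference was not detectable at this depth. It shares 72 exon bases (2.21%) with the antisense gene 2310026I22Rik.

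Camkk2 (ENSMUSG00000029471, chr5:122731170-122779409, minus strand), the kinase upstream of CaMKI, CaMKIV and AMPK, was at 13.0 and 13.6 CPM in fl/fl-Sham, 10.4 and 15.3 in CKO-Sham, 28.6 and 14.1 in fl/fl-MI, and 17.5 and 30.8 in CKO-MI. Only fl/fl-MI 2 lay within the sham range. The log2 fold change of 0.80 (SE 0.28) missed the threshold (adjusted p = 0.0588), and without fl/fl-MI 2 it was 1.01 with an adjusted p of 0.00737. Camkk2 was called higher in 6 of 18 alternatives, among them DESeq2 (adjusted p = 0.0174), no filter (adjusted p = 0.0258) and log2(FPKM + 1) (adjusted p = 0.0229).

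**Figure D1:**
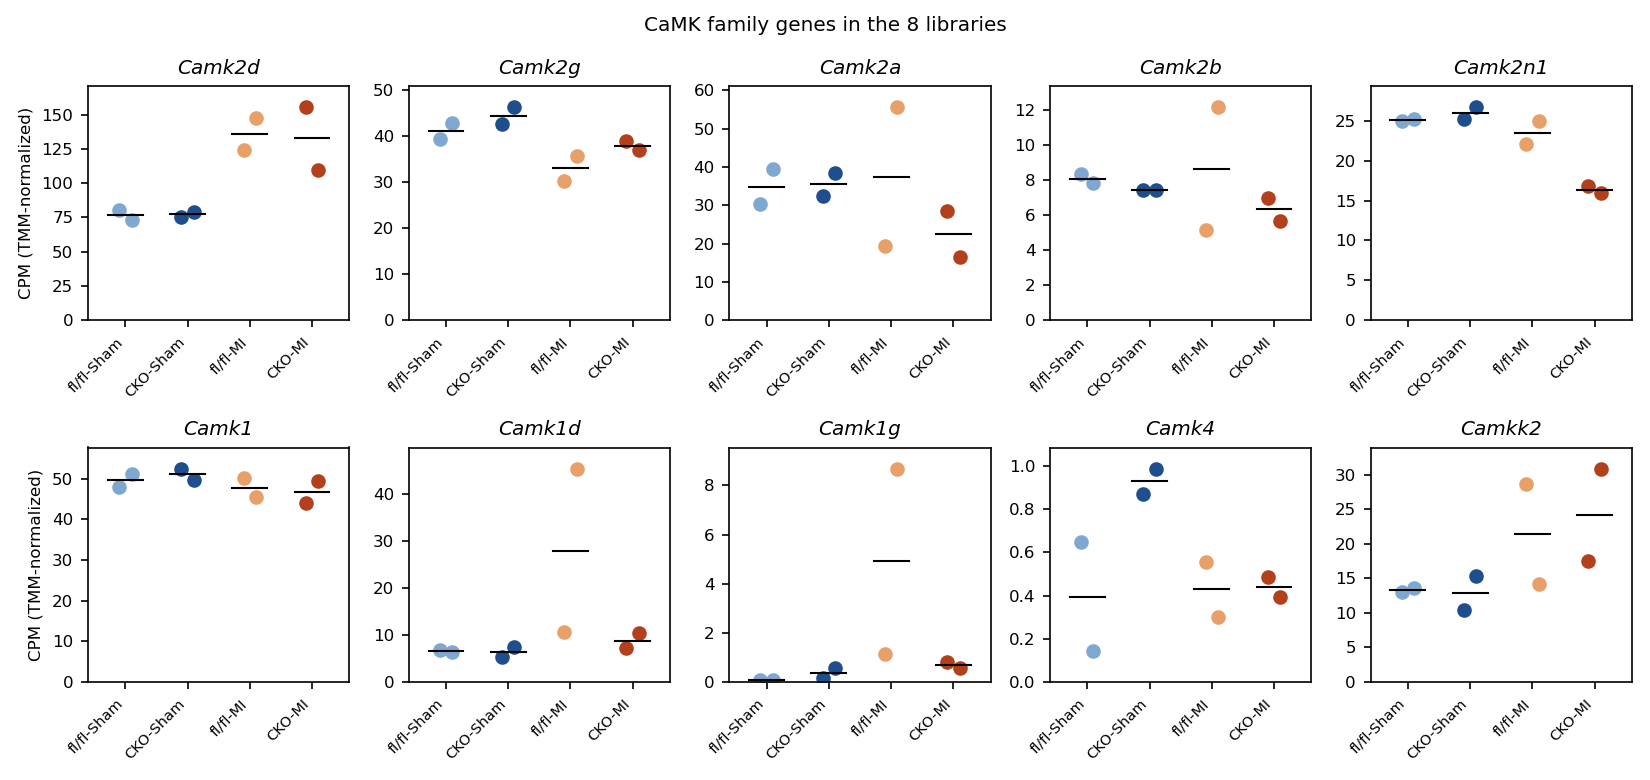
Level of each of the 10 CaMK family genes (vertical axis, TMM-normalized CPM, starting at 0, with a separate scale per gene) in each of the 4 groups; points are the 2 libraries of a group, in order of their number from left to right, and horizontal lines are group means. Camk2d lies at 73.2 to 80.1 CPM in sham and 109.8 to 155 CPM in MI, while Camk1d and Camk1g are highest in the single library fl/fl-MI 2.

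The scale matters for the falling genes. With TMM normalization the median of all genes moved by 0.03 between sham and MI, but on log2(FPKM + 1) values it moved by 0.41 and on log2(TPM + 1) values by 0.92. On log2(FPKM + 1) Camk2d was higher by 1.10, Camk1d by 0.97, Camkk2 by 0.80 and Camk1g by 0.79, all above that median. Camk2n1 (0.16), Camk2a (0.15), Camk2b (0.20) and Camk2g (0.25) were below it, although their values turned positive, and Camk1 (0.42) was at it. The MI and sham libraries did not overlap for 4 of 9 members in CPM, beside 40.4% of all genes, and for 7 of 9 in FPKM, beside 54.0% of all genes.

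Ratios within a library do not depend on this scale. By gene FPKM, Camk2d made up 24.2 and 20.2% of the summed CaMKII genes in fl/fl-Sham, 22.1 and 21.04% in CKO-Sham, 41.0 and 31.3% in fl/fl-MI, and 39.3 and 36.2% in CKO-MI. By summed transcript FPKM the same share was 46.1 and 41.9%, 43.0 and 42.05%, 63.7 and 54.2%, and 59.0 and 60.3% in these groups. On both scales every MI library was above every sham library. Camk2g made up 42.7 ± 1.06% in sham and 34.9 ± 6.61% in MI (SD, n = 4) by gene FPKM, and 31.6% in sham and 20.8% in MI by summed transcript FPKM. Camk2a went from 30.0% to 23.3% and Camk2b from 5.42% to 4.87% by gene FPKM. The ratio of Camk2n1 to Camk2d in gene FPKM was 1.58 to 1.74 in sham and 0.547 to 0.904 in MI. These shares restate the gene levels and were given no test.

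**Figure D2:**
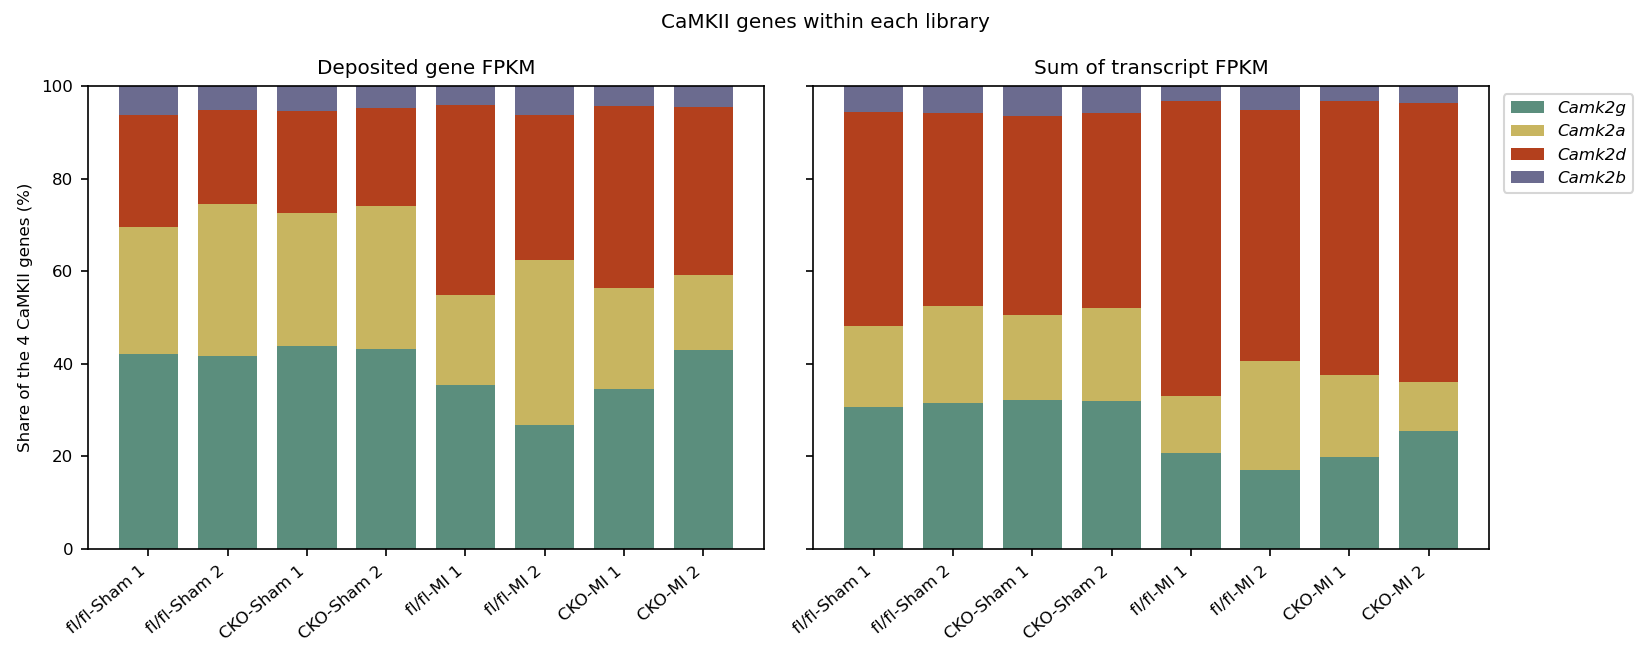
Share of Camk2g, Camk2a, Camk2d and Camk2b (vertical axis, percent of the 4 CaMKII genes) in each of the 8 libraries (horizontal axis), by deposited gene FPKM on the left and by the sum of transcript FPKM on the right. The Camk2d part is 20.2 to 24.2% in sham and 31.3 to 41.0% in MI on the left, and 41.9 to 46.1% and 54.2 to 63.7% on the right.

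Within each genotype label the same fit compared 2 MI with 2 sham libraries. The CKO-Sham labels are also in doubt by their Esr1 levels, so these comparisons follow labels and not known genotypes. In fl/fl 2 of 9 members were called, beside 18.5% of all genes: Camk2d at 0.82 (SE 0.20, adjusted p = 0.0314) and Camk1g at 5.87 (SE 1.16, adjusted p = 0.0183). Camk1g passed the filter only through fl/fl-MI 2, and both fl/fl-Sham libraries held 5 counts of it. Its call is therefore not independent of the filter. The fit without fl/fl-MI 2 below kept the same genes, so there too Camk1g is included because of that library. In CKO 2 of 9 were called, beside 24.7% of all genes: Camk2d at 0.78 (SE 0.20, adjusted p = 0.0296) and Camk2n1 at -0.66 (SE 0.13, adjusted p = 0.0148). Camk2n1 was at -0.09 (SE 0.13) in fl/fl. The Camk2d call was lost in 4 of the 8 fits in fl/fl and 5 of the 8 in CKO that left out a library, with adjusted p up to 0.198 and 0.170, and with the replicate block (adjusted p = 0.0568 and 0.0540). Without fl/fl-MI 2, whose label is in doubt, 4 members were called in fl/fl, beside 29.5% of all genes. These were Camk2d (0.69), Camk1g, now at 3.78 (adjusted p = 0.0101), Camk2g (-0.44, adjusted p = 0.0481) and Camkk2 (1.11, adjusted p = 0.0441). In CKO, Camkk2 (0.91, adjusted p = 0.0373) then joined Camk2d and Camk2n1, 3 members beside 41.3% of all genes. The difference between the labels in the MI change was called for no member and for 0.0% of all genes. Camk2n1 (-0.57, adjusted p = 0.574) and Camk1g (-4.94, adjusted p = 0.574) passed only without adjustment, beside 8.49% of all genes. Without fl/fl-MI 2 they were at -0.48 (adjusted p = 0.264) and -2.85 (adjusted p = 0.236), and no member was called beside 0.0356% of all genes. For Camk2d the difference was -0.04 with an interval of ± 2 SE from -0.59 to 0.50. DESeq2 called 0.934% of genes in this contrast, 131 in number, among them 1 member.

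**Figure D3:**
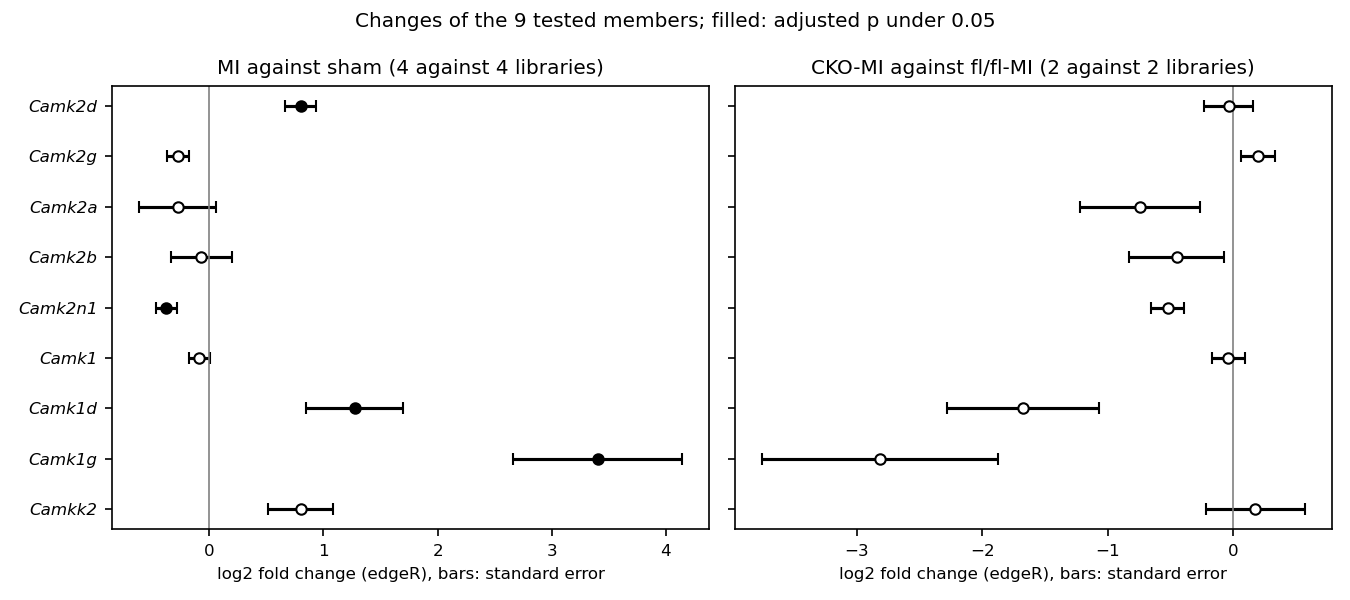
Log2 fold change from edgeR (horizontal axis) of the 9 members tested, with bars of 1 standard error, for MI against sham on the left and CKO-MI against fl/fl-MI on the right; filled points had an adjusted p under 0.05. Camk2d, Camk2n1, Camk1d and Camk1g are filled on the left, and no point is filled on the right.

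Cell type markers moved with MI. The summed markers of endothelial cells were 1571 to 1741 CPM in sham and 493 to 731 CPM in MI (6 of 6 genes called lower), and those of fibroblasts 1414 to 1559 and 2223 to 6426 CPM (7 of 8 called higher). Cardiomyocyte markers were 28777 to 33081 CPM in sham and 13296 to 29347 CPM in MI (4 of 8 called lower and 2 higher), and smooth muscle and pericyte markers 1296 to 1411 and 496 to 683 CPM (2 of 6 lower). Rgs5 was the largest part of the latter sum, with a mean of 1002 CPM in sham and 318 CPM in MI. Myh11 was also called lower, while Acta2, Tagln, Cnn1 and Pdgfrb were not called. Atrial markers were 135 to 594 CPM in sham and 2547 to 19857 CPM in MI, or to 4450 CPM without fl/fl-MI 2 (1 of 5 higher). Outside fl/fl-MI 2 the MI sum was nearly all Nppa (2520.3 to 4419 CPM), and Myl4 was at 10.2 to 12.5 CPM there against 10.8 to 48.0 CPM in sham. Macrophage markers were 174 to 206 and 174 to 380 CPM (3 of 7 higher), erythroid markers 67.2 to 477 and 229 to 621 CPM (4 of 4 higher), and neuron and glia markers 65.4 to 86.1 and 61.4 to 93.5 CPM (2 of 9 tested higher, 3 lower). No tested gene was called among lymphocyte markers (2 of 9 tested, 11.4 to 18.3 and 7.24 to 17.2 CPM) and neutrophil markers (4 of 5 tested, 7.57 to 12.1 and 5.12 to 11.5 CPM). The same held for skeletal muscle markers (3 of 7 tested, 159 to 568 and 23.7 to 799 CPM), megakaryocyte and platelet markers (3 of 4 tested, 11.3 to 16.0 and 13.6 to 33.1 CPM) and adipocyte markers (4 of 4 tested, 45.9 to 56.3 and 33.4 to 87.2 CPM). No listed marker was at 0 in every library. Their part in the changes of the CaMK genes was not tested.

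Shares of single transcripts were then compared. A share is the FPKM of a transcript over the summed FPKM of all annotated transcripts of its gene, and the sources do not say how the authors divided reads among transcripts. Differential use was tested on transcript counts with edgeR's diffSpliceDGE in genes with 2 or more transcripts above a mean FPKM of 0.5. Of 5 members that could be tested, 3 were called between MI and sham at the gene level, beside 22.0% of 6205 genes: Camk2d (adjusted p = 0.000445, 6 transcripts), Camk2a (adjusted p = 0.00928, 3 transcripts) and Camk1 (adjusted p = 0.0329, 5 transcripts). Camk2g (adjusted p = 0.143) and Camkk2 (adjusted p = 0.914) were not called. Of the 3 Camk2a transcripts, Camk2a-204 and Camk2a-202 reached the filter only through MI libraries, so the Camk2a call is not independent of that filter. Camk2a was not called with a transcript filter at a mean FPKM of 0.1. The fits that left out a library kept the transcripts filtered over all 8 libraries. Camk1 was lost in 7 of the 8 fits that left out a library (adjusted p up to 0.216), and Camk2a without fl/fl-Sham 2 (adjusted p = 0.0846). Without fl/fl-MI 2, Camk2d (adjusted p = 0.0116) and Camk2a (adjusted p = 0.0213) were still called. Of 19 transcripts that held at least 10% of their gene, the shares of 5 did not overlap between MI and sham, beside 17.3% of 24154 transcripts. They were Camk2a-203, Camk2a-204, Camk2g-201, Camk1-201 and Camk1g-201. The background holds transcripts with a mean FPKM of at least 0.5 in genes with 2 or more transcripts. Some of the 19, such as Camk2n1-201 and Camk1g-204, do not meet that rule, so the 2 shares are not alike. Camk2a-203 and Camk2a-204 mirror each other, and Camk1g-201 rests on 5, 5, 13 and 34 counts in sham.

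The clearest separation was in Camk2a. Camk2a-203, the full-length kinase, held 91.8, 94.4, 90.5 and 89.0% in the fl/fl-Sham and CKO-Sham libraries and 64.6, 65.9, 39.6 and 62.3% in the fl/fl-MI and CKO-MI libraries. Camk2a-204 held 4.62, 1.98, 0.477 and 8.70% in sham and 26.6, 26.1, 36.9 and 31.6% in MI. Neither range overlapped between MI and sham, and Camk2a-204 reached the rule of 10% of its gene only through MI. Camk2a-204 and Camk2a-202 start inside the gene and lack the exons of the kinase domain; transcripts of this kind encode αKAP, a membrane-anchored CaMKII association domain known from striated muscle. Together they held 8.15, 3.53, 1.71 and 10.01% in sham and 31.8, 28.8, 60.4 and 35.6% in MI. This grouping by start, like those by exon below, was not planned in advance and has no background over all genes. The difference was 33.3 percentage points, with an exact two-sided permutation p of 0.0286, the smallest that 4 against 4 libraries can give. As a share of counts, which favours long transcripts, it was 12.5 points (same exact p of 0.0286). In FPKM itself Camk2a-204 was at 0.231, 0.134, 0.0261 and 0.574 in sham and 1.80, 4.19, 4.17 and 1.85 in MI, while Camk2a-203 was at 4.58, 6.39, 4.95 and 5.87 in sham and 4.37, 10.6, 4.47 and 3.65 in MI. At the transcript level the relative log2 change of Camk2a-204 was 2.34 and missed the threshold (adjusted p = 0.111); its sham values are 18, 11, 3 and 44 counts.

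Camk2d was called for transcript use in every fit that left out a library. None of these fits left out both CKO-Sham libraries, and transcript use in MI was not tested against fl/fl-Sham alone. Camk2d-206, which holds the 60-base and 42-base exons (δA type), was at 2.56, 4.83, 0.00528 and 0.0333 FPKM in sham and 7.95, 9.42, 9.07 and 15.2 FPKM in MI. It was nearly absent in both libraries labelled CKO-Sham and present in the other 6. As a share of its gene it held 19.6 and 35.5% in fl/fl-Sham, 0.0410 and 0.241% in CKO-Sham, and 22.6 to 45.3% in MI. Its relative log2 change in MI was 2.68 (adjusted p = 0.00245, beside 1.57% of 19011 transcripts called), and its adjusted p was 0.0540 without CKO-MI 2. Camk2d-205, with the 33-base exon (δB type), had a relative log2 change of 4.12 (adjusted p = 0.00641). It held less than 10% of its gene and was named after its values were seen. Transcripts with this exon were at 0.134, 0.858, 0 and 0 FPKM in sham and 1.61, 3.73, 1.73 and 2.38 FPKM in MI. Camk2d-205 therefore reached the filter of a mean FPKM of 0.5 only through MI, and its call is not independent of that filter. Its call was lost without CKO-Sham 1, fl/fl-MI 2 or CKO-MI 2, with adjusted p from 0.0524 to 0.0695.

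Grouped by exon over the 17 Camk2d transcripts that span the region, the form with none of the 3 exons held 68.1, 51.2, 68.5 and 52.9% in sham and 60.1, 51.0, 57.4 and 31.5% in MI. The δB type held 1.14, 6.87, 0 and 0% in sham and 4.96, 10.5, 4.98 and 7.76% in MI (exact permutation p = 0.0857). The δA type held 27.4, 40.3, 0.0435 and 0.788% in sham and 25.9, 27.8, 28.9 and 52.8% in MI. The δ9 type held 3.31, 1.62, 31.5 and 46.3% in sham and 9.02, 10.8, 8.71 and 7.76% in MI. All 4 ranges overlapped between sham and MI. The fl/fl-Sham and CKO-Sham libraries lay apart from each other in the δA and δ9 types, and the δB overlap rested on fl/fl-Sham 2. Any transcript with the 42-base exon together held 30.7, 41.95, 31.5 and 47.1% in sham and 34.9, 38.6, 37.6 and 60.6% in MI, so the sham groups differed in which transcript with the 42-base exon was assigned reads and overlapped in the sum.

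Camk2g was not called for transcript use in that fit, although the share of its form with both linker exons was separated. Camk2g-201, which holds the 33-base and 69-base exons, made up 41.0, 34.1, 45.8 and 12.6% in sham and 49.7, 51.2, 56.0 and 46.5% in MI. Over the 9 transcripts that span the region, the form with both exons held 43.8, 36.7, 47.6 and 13.5% in sham and 54.2, 56.4, 60.2 and 53.4% in MI (exact permutation p = 0.0286, the smallest possible). The MI libraries lay above sham and close together. The form with neither exon held 27.2 ± 11.1% in sham and 18.0 ± 4.44% in MI (SD, n = 4), with overlapping ranges, and the fit across all transcripts gave Camk2g-201 a relative log2 change of 0.52 with an adjusted p of 1.0.

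**Figure D4:**
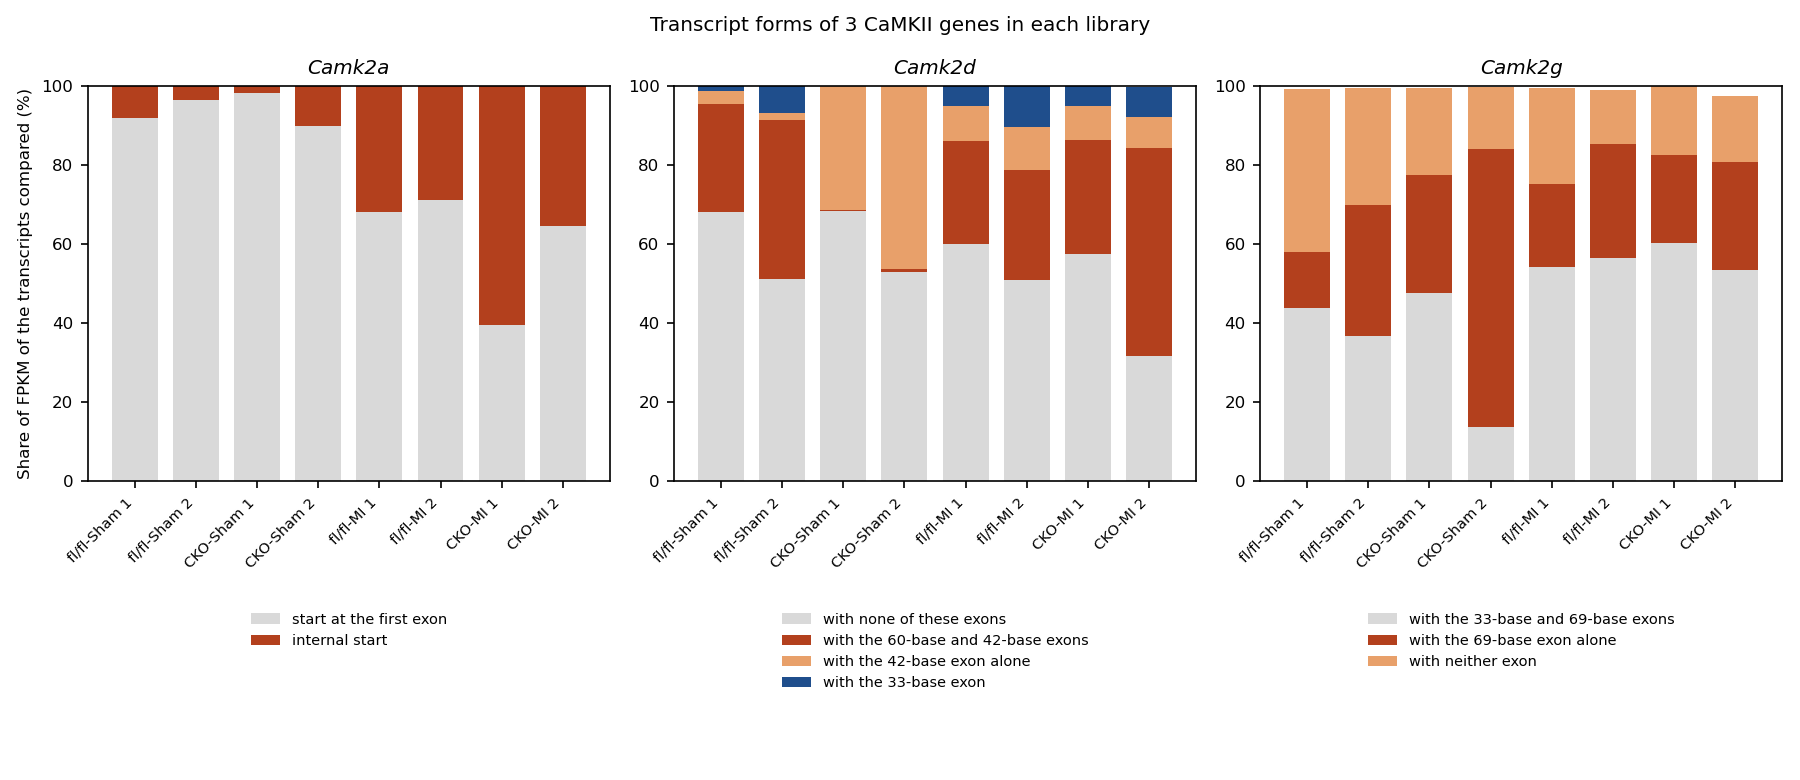
Share of transcript FPKM (vertical axis, percent of the annotated transcripts that span the region compared) by form in each of the 8 libraries (horizontal axis) for Camk2a, Camk2d and Camk2g; forms under 1% on average are not drawn. The internal-start form of Camk2a is 1.71 to 10.01% in sham and 28.8 to 60.4% in MI, and the Camk2d form with the 60-base and 42-base exons is under 1% in the CKO-Sham libraries alone.

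Among the other members, Camk1-201 was the only deposited coding transcript of Camk1, and the remaining 4 deposited transcripts retain introns. Camk1-201 held 51.0, 79.9, 76.2 and 74.0% in sham and 88.2, 88.9, 86.7 and 82.5% in MI. Camk1g-201 held 100% in all sham libraries, on few reads, and 63.0, 93.4, 51.2 and 95.5% in MI, while Camk1g-204 held 31.2, 0, 48.8 and 1.86%. Camkk2-201 held 61.5 to 70.4% in sham and 68.4 to 74.6% in MI, and Camkk2-204 15.0 to 20.9% and 15.9 to 20.1%. Camk1d-201 held at least 99.5% in every library, and Camk2n1 and Camk4 have 1 deposited transcript each. The shares of Camk2b were erratic: Camk2b-209 held 0 to 90.1% in sham and 0 to 81.9% in MI.

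Genotype labels were compared second. Between CKO-MI and fl/fl-MI no member and no gene was called by edgeR's quasi-likelihood test with Benjamini-Hochberg adjustment (0.0% of 14028 genes), while DESeq2 called 207 genes (1.48%) and no member. Without adjustment 3 members passed, all lower in CKO-MI, beside 8.31% of all genes (5.24% lower). Camk2n1 was at -0.52 (SE 0.13, adjusted p = 0.502), Camk1g at -2.82 (SE 0.94, adjusted p = 0.556) and Camk1d at -1.67 (SE 0.61, adjusted p = 0.556). Camk1g was tested here only because of its level in fl/fl-MI 2. The CPM ranges of CKO-MI and fl/fl-MI did not overlap for Camk2n1, Camk1g, Camk1d and Camk2g, 4 of 9 members, beside 30.0% of all genes. Camk2d was at -0.03, with an interval of ± 2 SE from -0.42 to 0.36.

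The library labelled fl/fl-MI 2, whose Esr1 level was like that of CKO-MI, decided much of this comparison. Without it Camk1g was at -0.73, Camk1d at -0.27, Camk2a at 0.20 in place of -0.74, Camk2b at 0.30 in place of -0.45, and Camk2n1 at -0.43 (adjusted p = 0.284), with 0 members and 0.192% of all genes called. Without fl/fl-MI 1 instead, 5 members were called, beside 11.9% of all genes: Camk2a (-1.29), Camk2b (-0.92), Camk2n1 (-0.59), Camk1d (-2.36) and Camk1g (-3.62). Camk2n1 was the member whose direction and size moved least among these 5. Fits that leave 1 library in a group assume that it varies like the other groups. No member was called for transcript use between CKO-MI and fl/fl-MI (0.854% of 6205 genes were).

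Between CKO-Sham and fl/fl-Sham no member was called at the gene level (0.00713% of all genes were; 3.89% without adjustment, and 34 genes, 0.242%, with DESeq2). This comparison is by label only, because Esr1 was at 5.52 and 7.60 CPM in CKO-Sham and at 8.36 and 6.41 CPM in fl/fl-Sham. Camk1g was at 2.13 (SE 1.13) on its few sham counts, and the other 8 members lay between -0.12 and 0.11. In transcript use Camk2d was called (adjusted p = 0.000186, beside 2.22% of genes), in a comparison added after the data were seen. Camk2d-206 was lower in CKO-Sham by a relative log2 value of -5.19 (adjusted p = 0.000853, beside 0.663% of transcripts) and Camk2d-205 by -6.86 (adjusted p = 0.0144). Camk2d-202, the δ9 type, was at 0.387 and 0.202 FPKM in fl/fl-Sham and 3.82 and 5.94 FPKM in CKO-Sham, a relative log2 change of 2.75 that missed the threshold (adjusted p = 0.197).

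Other genes of the pathway were counted in MI against sham, where 40.4% of all genes were called. Among 10 tested relatives outside the family members, Dapk1 (0.80, adjusted p = 0.00399) and the cardiac myosin light chain kinase Mylk3 (0.99, adjusted p = 0.0344) rose and Phkg2 (-0.57, adjusted p = 0.00805) and Mylk (-0.81, adjusted p = 0.00860) fell, with a median of 0.03. Of 6 calmodulin genes and calmodulin-binding buffers, Calm3 rose (0.48, adjusted p = 0.00800) and Gap43 fell (-0.77, adjusted p = 0.0398), with a median of -0.29. Pcp4 was at -0.60 (adjusted p = 0.399). Of 14 CaMKII targets in excitation-contraction coupling, 4 rose and 1 fell, with a median of 0.50. Among these were the Na+/Ca2+ exchanger Slc8a1 (1.56, adjusted p = 0.000638), the ryanodine receptor Ryr2 (0.89, adjusted p = 0.0296) and the Ca2+ pump Atp2a2 (1.29, adjusted p = 0.0354), against troponin I, Tnni3 (-1.19, adjusted p = 0.0203).

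Downstream of the nuclear CaMKs, 8 genes of the class IIa deacetylase and MEF2 axis were tested. Nr4a1 rose (2.75, adjusted p = 0.0139) and Hdac7 (-0.91, adjusted p = 0.00167) and Hdac5 (-0.44, adjusted p = 0.00832) fell, with a median of -0.09, and Hdac9 was at -0.37 (adjusted p = 0.0726). Of 10 genes downstream of CaMKK2, CaMKIV and CaMKI, 4 rose and none fell, with a median of 0.05 beside 0.03 over all genes. These 4 of 10 stand beside 40.4% of all genes called in either direction and 22.0% called higher. Prkaa2 (1.77, adjusted p = 0.00125), Prkab2 (1.92, adjusted p = 0.00244) and Prkag2 (1.49, adjusted p = 0.0195) encode AMPK subunits and Atf1 (1.04, adjusted p = 0.00100) a CREB-family factor, while the paralogous subunits Prkaa1 (-0.10), Prkab1 (-0.43) and Prkag1 (-0.13) were not called. These 3 paralogues, and Atp2a2 and Ppp1cc, are named after their values were seen. Of 9 phosphatases that act on CaMKs, Ppm1e (1.70, adjusted p = 0.00863), Ppp1cb (0.82, adjusted p = 0.00177), Ppp2ca (0.49, adjusted p = 0.00565) and Ppp1cc (0.31, adjusted p = 0.0383) rose and Ppm1f (-0.65, adjusted p = 0.00192) fell, with a median of 0.31. Ppm1f and Ppm1e encode the CaMK phosphatases of the PP2C family. On log2(FPKM + 1), where all genes have a median of 0.41, the list medians were 0.25 for the relatives, 0.175 for calmodulin and buffers, 0.80 for the CaMKII targets, 0.33 for the deacetylase axis, 0.41 for the CaMKK2 downstream genes and 0.84 for the phosphatases. Hdac5 (0.12), Hdac9 (0.10) and the 3 AMPK paralogues (0.07 to 0.40) turned positive on that scale. With log2(TPM + 1) every list gene named here with a negative value turned positive except Tnni3 (-0.13). In CKO-MI against fl/fl-MI none of these lists held a called gene.

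The genes whose pattern over the 8 libraries was nearest to a CaMKII gene were found by the root mean square difference of centred log2 CPM. For Camk2d these included Mvb12b (0.07) and Nomo1 (0.08), and for Camk2g Pnn (0.07), Puf60 (0.07) and Gatad2a (0.07). Hic2 (0.05), Aldh2 (0.07) and Palmd (0.07) were nearest to Camk2b, and all 3 had their highest level in fl/fl-MI 2. The nearest to Camk2a, Mrip-ps, S100a8 and Gm13375, were farther away (0.14 each) and low in level.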

How the data were processed

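Per the labels, total RNA was extracted from myocardium with Trizol and made into strand-marked libraries; the paper's methods give paired reads of poly(A) RNA. The submitters' processing notes name cutadapt 1.9 and FastQC; the aligner, the counter, the genome build and whether counting used strand are not given in the sources used here. The authors deposited counts and FPKM values per gene and per transcript. The deposited counts hold about 4 counts per read pair, so their totals overstate depth, and the deposited FPKM values differ in their sum between libraries. All member genes and transcripts match GENCODE M21 (GRCm38) in identifier and coordinates. Groups follow the sample titles.

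Counts were tested with edgeR 4.0.16 (R 4.3.3; TMM, quasi-likelihood, all 8 libraries in 1 fit, mean FPKM of at least 0.5, Benjamini-Hochberg adjusted p under 0.05) and transcript use with its diffSpliceDGE on 19011 transcripts; on simulated data the transcript test made more wrong calls than its nominal rate. CPM are TMM-normalized. Shares were compared with exact two-sided permutation tests (SciPy 1.17.1). DESeq2 1.42.0 and limma 3.58.1 on log2(FPKM + 1), log2(FPKM + 0.1) and log2(TPM + 1), other normalizations, filters and leaving out each library were the alternatives. Named were all members, transcripts with at least 10% of their gene on average, for each list up to 4 genes with the smallest p, and for each CaMKII gene the 3 genes with the nearest pattern. The members, lists and markers were chosen with earlier results of these data known. Exon sequences were read from GENCODE M21 transcripts. Proteomics of the study is not analysed here. Some genes that this rule names are not reported here.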

Additional observations from a re-analysis of the deposited data

Results flagged for a closer look

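In each set of 4 libraries (all sham or all MI), a library was singled out when its gap to the nearest other, over the range of the set, passed Dixon's 95% critical value for 4 samples. This happened in 11 of 54 sets. The rate of about 1 in 20 by chance holds for independent, normally distributed values, and these sets are neither. Shares of 1 gene mirror each other, many lie at their bounds, and each set joins both genotype labels. The number of sets is therefore not read as an excess. In MI, Camk2b-215 held 4 counts in CKO-MI 1 and 0 in the other libraries. For gene levels, fl/fl-MI 2 stood above the other MI libraries in Camk1d (45.4 CPM) and in Camk1g (8.68 CPM). CKO-Sham 2 stood above the other sham libraries in Camk2n1 (26.7 CPM), by a small amount. For transcript shares, CKO-MI 1 was lowest in Camk2a-203 (39.6%) and CKO-MI 2 highest in Camk2d-206 (45.3%) among MI libraries. In Camk2b, CKO-MI 2 was lowest for Camk2b-209 (0%) and highest for Camk2b-204 (76.1%), and CKO-MI 1 was highest for Camk2b-215 (0.675%). In Camkk2, CKO-Sham 1 was lowest for Camkk2-201 among sham libraries (61.5%), fl/fl-MI 1 was highest for it among MI libraries (74.6%), and CKO-MI 2 was highest for Camkk2-204 (20.1%).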

How the results depend on the processing

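Camk2d kept its direction and its call in MI against sham under all 18 alternatives in which it was tested; its mean FPKM was under 5. For MI against sham, 4 members were called, and 9 with limma on log2(TPM + 1), 1 with an FPKM mean of 5 or more, and 1 to 8 with 1 library left out (8 without fl/fl-MI 2, 1 without either fl/fl-Sham library, 2 without either CKO-Sham library). In fl/fl the 2 calls became 9 with log2(TPM + 1), 0 with an FPKM mean of 5 or more, 0 when only the libraries compared were fitted, and 0 to 4 with 1 library left out. In CKO the 2 calls became 1 with log2(FPKM + 1), 1 with log2(FPKM + 0.1), 4 with log2(TPM + 1), 1 with no filter, 0 with an FPKM mean of 5 or more, and 0 to 3 with 1 library left out. For the difference between labels, 0 calls became 1 with DESeq2 and 0 to 2 with 1 library left out, and for CKO-MI against fl/fl-MI 0 to 5.

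On the log2(FPKM + 1), log2(FPKM + 0.1) and log2(TPM + 1) scales, where the median of all genes is higher in MI by 0.41, 0.56 and 0.92, some signs in MI against sham turned: Camk2a 0.15, 0.17 and 0.66, Camk2b 0.20, 0.39 and 0.58, Camk2g 0.25, 0.29 and 0.78, Camk2n1 0.16, 0.18 and 0.68, and Camk1 0.42, 0.47 and 0.97. Camk2n1 turned in fl/fl (0.39, 0.46 and 0.93) and, with log2(TPM + 1), in CKO (0.42). With 1 library left out, Camk2b in MI against sham ranged from -0.44 to 0.16, and between CKO-MI and fl/fl-MI Camk1 ranged from -0.10 to 0.056, Camk2a from -1.29 to 0.20, Camk2b from -0.92 to 0.30, Camk2d from -0.29 to 0.23 and Camkk2 from -0.25 to 0.79. Piezo1 ranged from -0.084 to 0.18 between the MI groups and from -0.0075 to 0.19 in CKO-Sham against fl/fl-Sham. Over all genes, the 5663 calls in MI against sham became 11033 with log2(TPM + 1), 2906 with an FPKM mean of 5 or more and 3235 to 7108 with 1 library left out, and the 0 calls in CKO-MI against fl/fl-MI became 207 with DESeq2 and 0 to 1674. With log2(TPM + 1), 9404 of 14028 genes were called in fl/fl and 8825 in CKO, beside 2596 and 3467 with edgeR. With an FPKM mean of 5 or more these were 1602 and 2105 of 5524 genes. The cause of these changes was not tested.

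The replicate numbers did not pair the samples: deviations of same-numbered libraries correlated between -0.14 and 0.06. With the replicate block 3 members were called in MI against sham (Camk1d was not, adjusted p = 0.0529), 1 in fl/fl and 1 in CKO. Over all 14028 genes, 5085, 1689 and 2677 were called in these comparisons. With the numbers of CKO-MI crossed, the block called 0 members and 0 genes in CKO-MI against fl/fl-MI. In Camk2a transcript use, the gene-level adjusted p was 0.123 with a transcript filter at a mean FPKM of 0.1. In that of Camk1 it was 0.370 with limma on log2(FPKM + 0.1) and 0.133 with the replicate block. Low counts limit what can be said of Camk1g and Camk4 in sham.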
